A study of Homo sapiens with 22 samples.

Results

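The accessible chromatin of 40 genes of protein secretion through the endoplasmic reticulum (ER) and of the unfolded protein response was followed in 22 ATAC-seq libraries made from KMS34 and KMS11, both multiple myeloma cell lines. The 40 genes were named as a list by function, out of 19974 protein-coding genes on the 22 autosomes and X, with no measured value in the rule, though earlier results of these data were known when the list was chosen. They comprise 10 ER chaperones and co-chaperones, 4 protein disulfide isomerases, 8 genes of translocation into the ER, 10 genes of ER-associated degradation, 7 stress sensors and transcription factors, and SEC24D of the coat that carries cargo out of the ER. The value given for a gene is the number of base pairs (bp) covered by called peaks in its body and 5 kb on either side, in hg38, and single peaks were compared after peaks of all libraries were merged into regions. ATAC-seq cuts accessible DNA with a transposase, so a called peak marks a stretch of open chromatin and says nothing of the amount of RNA or protein.

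The libraries form 11 groups of 2. KMS34 was sampled at day 0, and after NSD2LDD or DMSO at days 4 and 10. KMS11 was sampled as cells labelled TKO at day 0, as KMS11 cells at day 0, and after NSD2LDD or DMSO at days 4 and 10. Every library but the TKO pair has the genotype label t(4;14), the translocation that places NSD2, a histone H3 lysine 36 methyltransferase, under immunoglobulin heavy chain control, and the series presents NSD2LDD as a degrader of NSD2. The sources used here do not say what TKO stands for, whether the TKO cells were 1 clone, or at what concentration NSD2LDD was added, and peak lists hold no measure of NSD2 protein. The duplicates are not said to be separate cultures, so p-values measure the spread between these libraries, which may be technical.

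Plasma cells fold and export large amounts of antibody, and the unfolded protein response matches the capacity of the ER to that load. The sensors lie in the ER membrane: ERN1 (IRE1), which splices XBP1 mRNA, ATF6, which is cleaved to a transcription factor, and EIF2AK3 (PERK), which slows translation and raises ATF4. ATF6 and spliced XBP1 act at ER stress response elements, known as ERSE and ERSE-II, in the promoters of chaperone genes, while ATF4 induces DDIT3 (CHOP) and PPP1R15A (GADD34), a phosphatase subunit that restores translation. Proteins that fail to fold are recognised by EDEM and OS9 proteins and are passed to the SEL1L and SYVN1 ubiquitin ligase complex with its DERL and HERPUD1 partners.

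The stretches printed here carry the ER stress response elements of the members, because these letters lay under a called peak in every library. ERSE was searched as CCAAT and CCACG with any 9 bases between them, and ERSE-II as ATTGG and CCACG with any 1 base between them, on both strands, in the window from 250 bases before to 50 after each RefSeq start (GRCh38.p14), which was given for 36 of the 40 members. The sequences are from RefSeq and run 5′ to 3′ on the strand of the gene, and capitals mark the fixed letters of ERSE in the first 5 genes and the whole of ERSE-II, its free base included, in the last 3. An element on the opposite strand opens with CGTGG.
CALR: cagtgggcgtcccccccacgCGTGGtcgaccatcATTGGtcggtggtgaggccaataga
CANX: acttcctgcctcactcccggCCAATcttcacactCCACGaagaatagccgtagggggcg
HSP90B1: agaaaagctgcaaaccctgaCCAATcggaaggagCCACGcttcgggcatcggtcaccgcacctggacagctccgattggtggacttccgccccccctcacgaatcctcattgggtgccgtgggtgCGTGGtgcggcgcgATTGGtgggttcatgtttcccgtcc
HSPA5: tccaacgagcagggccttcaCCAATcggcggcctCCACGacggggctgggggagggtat
PDIA6: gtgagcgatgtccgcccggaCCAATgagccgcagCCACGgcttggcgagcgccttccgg
HERPUD1: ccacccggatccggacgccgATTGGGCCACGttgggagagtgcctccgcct
HYOU1: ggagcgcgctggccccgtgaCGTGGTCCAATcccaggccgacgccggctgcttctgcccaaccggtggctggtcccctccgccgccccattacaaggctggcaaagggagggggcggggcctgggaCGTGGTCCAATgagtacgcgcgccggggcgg
SDF2L1: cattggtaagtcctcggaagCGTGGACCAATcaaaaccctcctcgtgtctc
They lie at chr19:12938364-12938422 (CALR, plus strand), chr5:179698758-179698816 (CANX, plus strand), chr12:103930196-103930359 (HSP90B1, plus strand), chr9:125241371-125241429 (HSPA5, minus strand), chr2:10812833-10812891 (PDIA6, minus strand), chr16:56932005-56932055 (HERPUD1, plus strand), chr11:119057254-119057410 (HYOU1, minus strand) and chr22:21642094-21642144 (SDF2L1, plus strand). ERSE was found in 5 of 36 members (13.9%), against 0.133% of the promoters of all 15812 genes with a start, and ERSE-II in 3 (8.33%), against 0.0949%. The members were listed by function, and these elements are known from promoters of chaperone genes. The shares were therefore not independent of the choice of list and are given as a description. HSP90B1 held 2 ERSE and HYOU1 held 2 ERSE-II. Each of these elements was covered from end to end by a called peak in 22 of 22 libraries, of both lines and under every label. Of 52 other ER genes with a start, 3 held ERSE, namely CRELD2, ERO1B and XBP1, and 0 held ERSE-II.

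The core TGACGTGG of the unfolded protein response element stood in 3 members (HYOU1, SEC62 and SSR3, 8.33%, against 1.05% of all promoters), and in HYOU1 its last letters overlap the upstream ERSE-II. It also stood in 9 of the 52 other ER genes. The cyclic AMP response element TGACGTCA stood in CREB3L2 and PPP1R15A (5.56%, against 3.00%). The amino acid response element TGATGNAA, a form bound by ATF4 dimers, stood in CREB3L2 and HERPUD1 (5.56%, against 3.60%). These 7 matches were covered in 22 libraries, but for the core in SSR3 (1 library), the cyclic AMP element in PPP1R15A (19) and the amino acid element in CREB3L2 (0). A match describes letters in this window and is not a measured binding site, and these shares too describe a list chosen by function.

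Nearly all of the 40 genes carried a peak at their start in every library. A peak within 1 kb of an annotated start (or of either gene end, for the 4 members without a start: PDIA3, DERL1, DERL3 and SEC24D) was called in all 22 libraries for 39 members, or 97.5%. The share was 49.6% of all protein-coding genes, 59.2% of the 16738 genes tested and 93.2% of 59 other ER genes. The exception, PPP1R15A, had a start peak in 19 libraries and none in TKO replicate 1 and both KMS11 day 0 libraries. Its start window held 0 and 199 bp in the TKO libraries, against 0 and 0 bp in KMS11 day 0, while it held 529 to 1154 bp in the 4 KMS11 NSD2LDD libraries, against 836 to 1095 bp in the 4 KMS11 DMSO libraries, and 621 to 1240 bp in the 10 KMS34 libraries.

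Most start peaks ranked high in their lists by q. The start peaks of all genes were not ranked beside them, so this is not given as a trait of the members. Ranked by the authors' −log10 q within its own library, the strongest start peak of a member had a median percentile of 90.2 over the 40 members, and 34 members had a median percentile of 75 or more. The highest median percentile was that of PDIA4, a disulfide isomerase, at 99.97, followed by OS9, a lectin of ER-associated degradation, at 99.8. The lowest was that of ATF6 at 50.96, followed by PPP1R15A at 61.8 and DERL2, a channel component of ER-associated degradation, at 66.5. The authors' fold enrichment at the start peak had medians of 4.85 for MZB1, an ER protein of B cells and plasma cells that aids antibody assembly, to 17.2 for SSR3, a subunit of the translocon-associated TRAP complex. The median fold over all peaks of a library was 5.57 to 9.08. Ranked by fold within its library, the start peak had median percentiles of 12.5 for MZB1 to 98.4 for SSR3.

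**Figure D1:**
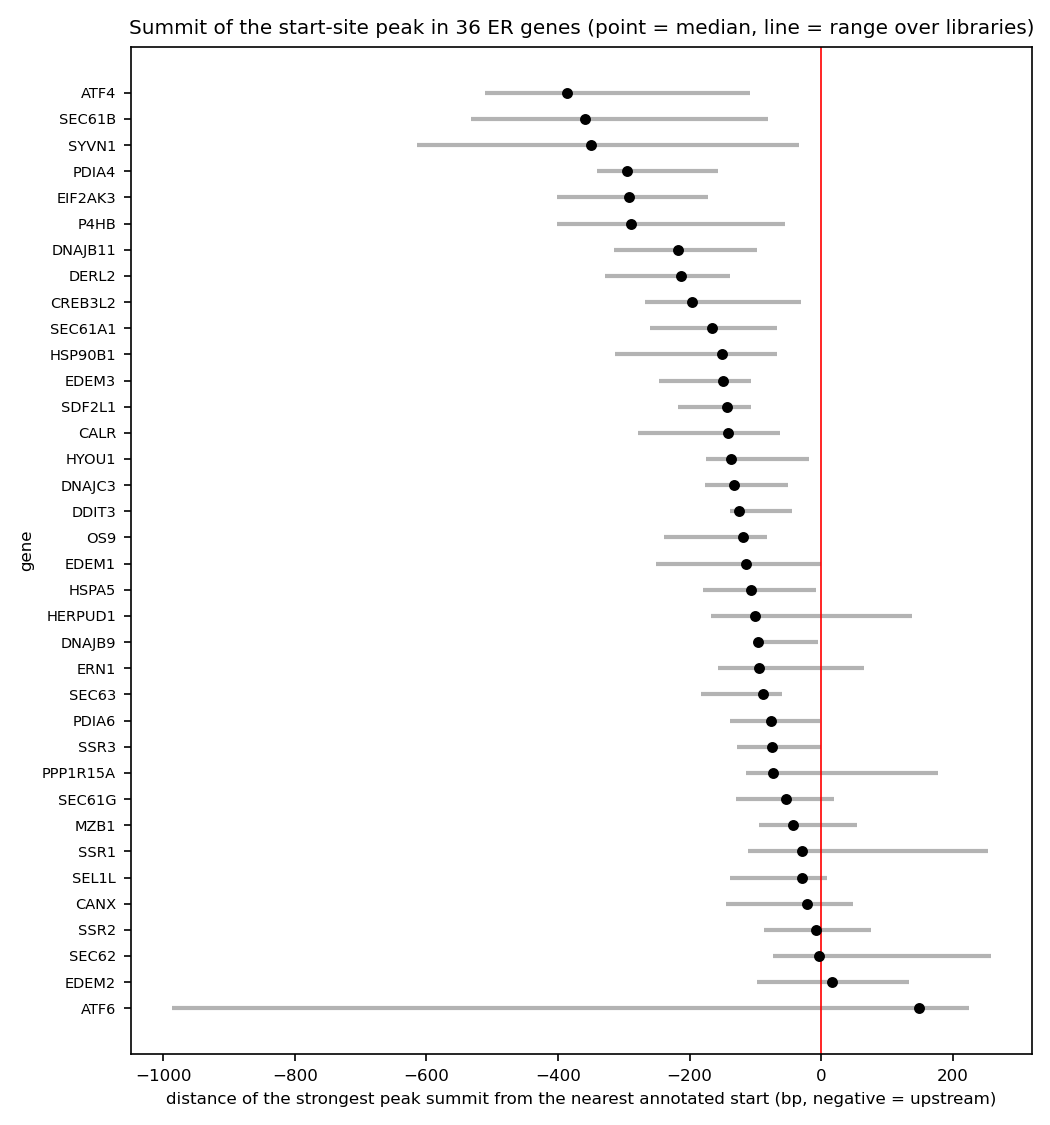
Distance in bp of the strongest start-site summit from the nearest annotated start for the 36 members with a start; the point is the median and the line the range over the libraries with a peak, and negative values are upstream. Medians run between −386 bp (ATF4) and 148 bp (ATF6), and 34 of 36 are upstream.

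Summits stood just upstream of the starts. The median over the 36 members was −117 bp, and 28 medians were within 200 bp of the start. HSPA5, the Hsp70 chaperone BiP and the classic target of the response, had its summit at a median of −106 bp with a range of −179 to −8 bp, and the middle of its ERSE lay 49 bp closer to the start than that median summit. In PDIA6 the ERSE was centred 0.5 bp from the median summit, and in HERPUD1 the ERSE-II was 11 bp from it, the closest of the printed genes. Elsewhere the distance, positive where the element lay upstream of the summit, was 74 bp in CALR and 40.5 bp in SDF2L1. It was 34 and −71 bp in HSP90B1, 43 and −63 bp in HYOU1, and −21, 121 or 159 bp in CANX by the start used. ATF6 had the widest range of summits, −987 to 224 bp. Besides the region 88 bp from its start, called in 22 libraries, its start window reached a separate region 934 bp away. That region was called in 11 libraries, all of KMS11, and the −987 bp summit lay in it.

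The members differed in how much open chromatin lay beyond the start. Median coverage over the 22 libraries was lowest in EDEM2 (723.5 bp), SSR2 (755 bp) and SDF2L1 (841 bp), and highest in CREB3L2 (4413.5 bp), ERN1 (4217 bp) and ATF6 (2752 bp). EDEM2 is a mannosidase-like protein of degradation, SSR2 a TRAP subunit, SDF2L1 a co-chaperone partner of BiP, and CREB3L2 an ER-resident transcription factor related to ATF6. The 3 highest genes span 127.1 kb, 91.0 kb and 197.8 kb, and SDF2L1 spans 2.0 kb, so these levels are not corrected for gene length. In 16 members all coverage lay in the start window at the median, among them HSPA5, HYOU1, P4HB, SEC61A1 and ATF4. In 6 members more of it lay outside than inside, led by ERN1 (76.7%), CREB3L2 (73.6%) and SEL1L (73.0%), with ATF6 (69.6%), MZB1 (65.7%) and CANX (63.2%). Another gene's start lay within the window of 11 members, such as SLC23A1 beside MZB1, and peaks there count towards both genes.

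By role, the chaperone and co-chaperone genes had median coverage between 841 bp in SDF2L1 and 2542.5 bp in CANX, the membrane lectin chaperone. Between them lay HSPA5 (1078.5 bp), HYOU1 (1201.5 bp), DNAJC3 (1275 bp), MZB1 (1583.5 bp), HSP90B1, the ER Hsp90 GRP94 (1622.5 bp), CALR (1996 bp), and the J-domain partners of BiP, DNAJB11 (1372.5 bp) and DNAJB9 (1392.5 bp). The disulfide isomerases had medians of 1000 bp (PDIA4), 1164 bp (P4HB), 1435 bp (PDIA3) and 2066.5 bp (PDIA6). Among the translocation genes, the channel subunits SEC61A1, SEC61B and SEC61G had medians of 936, 1221 and 1017.5 bp, their partners SEC62 and SEC63 1381.5 and 1163 bp, and the TRAP subunits SSR1, SSR2 and SSR3 934, 755 and 1274 bp. Among the degradation genes the lowest were EDEM2, DERL3 (854 bp) and OS9 (857.5 bp), followed by SYVN1 (1294 bp), DERL2 (1362 bp), DERL1 (1504.5 bp) and HERPUD1 (1811.5 bp). EDEM1 (2201 bp), EDEM3 (2307.5 bp) and SEL1L (2558.5 bp) had the most. The sensors and factors included the highest genes, with PPP1R15A (1146.5 bp), ATF4 (1426.5 bp), EIF2AK3 (2053 bp) and DDIT3 (2083.5 bp) under ATF6, ERN1 and CREB3L2, and SEC24D had 2153 bp.

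**Figure D2:**
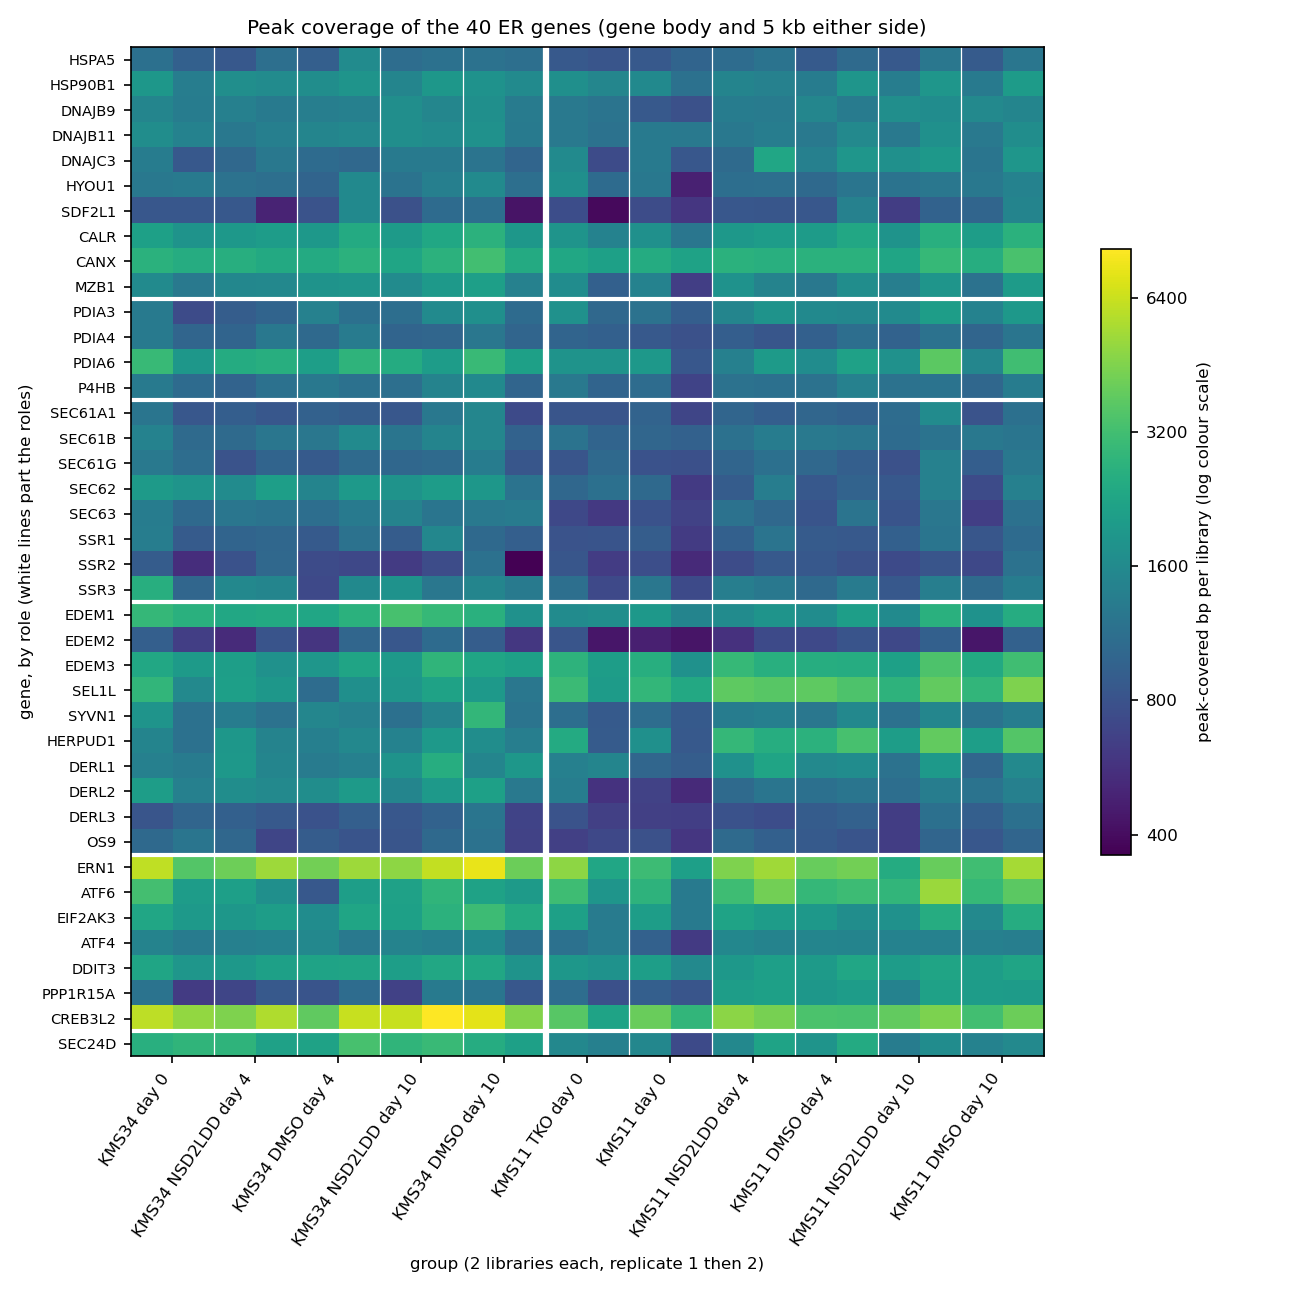
Peak-covered bp (log colour scale) of the 40 members (rows, parted by role) in 22 libraries (columns, 2 a group); the thick line parts KMS34 on the left from KMS11 on the right. CREB3L2 and ERN1 are the brightest rows, and SEL1L, HERPUD1 and PPP1R15A are darker in KMS34 than in most KMS11 libraries.

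The libraries were unequal in length. A library held 24979 to 52518 peaks, and the 40 members together were covered by 40.7 to 83.2 kb. KMS34 day 0 and DMSO libraries held 34165 to 52518 peaks (median 42052), against 24979 to 39002 (median 35689) in KMS11 day 0 and DMSO libraries. Summed member coverage was 58.5 to 83.2 kb (median 66.9) in those KMS34 libraries, against 40.7 to 80.8 kb (median 61.3) in those of KMS11. Each log2 value was therefore reduced by its library's median, which leaves differences relative to the other genes. Read counts are not in the peak lists, so depth is unknown. Of 8 plasma cell markers, 7 had a start peak in all 22 libraries and SLAMF7 in 9. Of 16 markers of T and NK, myeloid, erythroid, megakaryocyte, stromal and endothelial cells, 0 had one in all libraries and 13 had one in none; CD3E had one in 21, COL1A2 in 10 and PDGFRB in 8.

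In KMS34 no change with NSD2LDD was called in any of the 40 genes. The tests used limma on log2(bp + 200) with Benjamini-Hochberg adjustment over 16738 genes, 4 NSD2LDD against 4 DMSO libraries over days 4 and 10. Of the 40 members 0 were called, 3 had an unadjusted p under 0.05, and 0.00% of all genes were called, with 6.24% under the unadjusted limit. The median log2 difference was 0.0024 over the members and −0.0039 over all genes, and members ranged between −0.32 and 0.43. The smallest p belonged to SEL1L, the adaptor of the degradation ligase. SEL1L had 2116 and 1885 bp at day 4 and 1878 and 2194 bp at day 10 with NSD2LDD, against 1096 and 1713 bp at day 4 and 1939 and 1249 bp at day 10 with DMSO. The groups overlapped at 1 DMSO library, and the log2 difference was 0.43 ± 0.12 (SE, adjusted p = 0.476, limma). SYVN1, the ligase itself, had 1347 and 1168 bp, then 1152 and 1469 bp with NSD2LDD, against 1525 and 1425 bp, then 2872 and 1206 bp with DMSO. One DMSO library stood above the others there, and the log2 difference was −0.32 ± 0.14 (SE, adjusted p = 0.766, limma).

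Single regions gave 2 calls in KMS34. The 168 merged regions in the members' windows included 135 called in at least 2 libraries, which were tested among 69191 regions with log2(bp + 100). Both calls were higher with NSD2LDD, 2 of 135 members' regions, against 0.986% of all regions called in either direction and 0.642% called higher. Both lay away from start sites, where 2 of 84 were called (1.14% of all such regions), and 0 of 51 were called at start sites (0.310%). The first lay in the body of SEL1L at chr14:81474123-81474623, 59481 bp from the start. It was covered by 501 and 239 bp at day 4 and 188 and 238 bp at day 10 with NSD2LDD, and was listed at 0 in all 4 DMSO libraries. It was also covered in both KMS34 day 0 libraries (380 and 214 bp) and in no KMS11 library. The fitted log2 difference was 1.93 ± 0.28 (SE, adjusted p = 0.0049, limma), and 3.36 with 30 bp added in place of 100 bp. Here and in every region listed at 0 in all libraries of a group, the fitted difference depends on the bp added and is no bound on a fold. The other lay in the flank of EDEM1, a mannosidase-like protein that routes misfolded glycoproteins to degradation, at chr3:5221164-5221785. It was covered by 548 and 345 bp with NSD2LDD at day 10, and was listed at 0 in the other 20 libraries. It could enter the test, which asks for a peak in at least 2 libraries, only through these 2, so its direction was fixed by that filter, and it is given as values. The SEL1L call was lost when KMS34 libraries were fitted alone (adjusted p = 0.821, limma), and no region was called with lists of equal length.

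**Figure D3:**
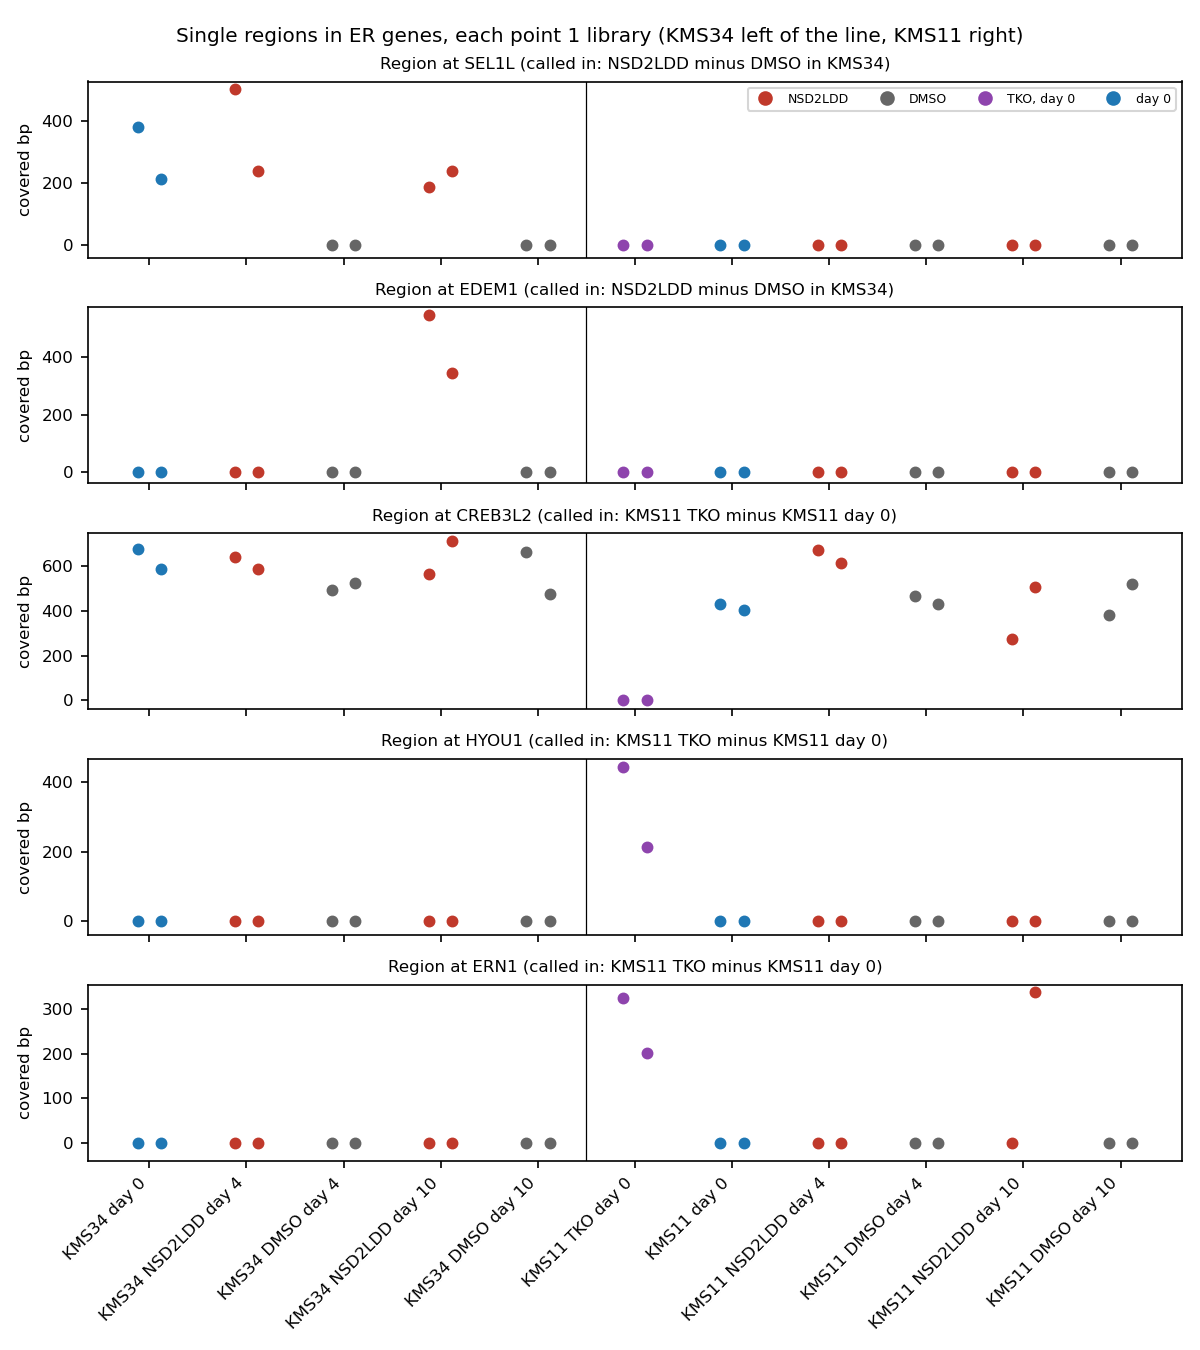
Peak-covered bp of the 5 regions in member genes called under NSD2LDD in KMS34 (SEL1L, EDEM1) or between TKO and KMS11 day 0 (CREB3L2, HYOU1, ERN1); each point is 1 library and groups are on the horizontal axis. The SEL1L region is covered in KMS34 NSD2LDD and day 0 libraries and is at 0 in KMS34 DMSO, and the CREB3L2 region is at 0 in the TKO pair and covered in the other 20 libraries.

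KMS11 gave no call with NSD2LDD at either level. Of the 40 members 0 were called by limma, against 0.00% of all genes, and 2 members had an unadjusted p under 0.05, against 3.50% of genes. Members ranged between −0.44 and 0.29 in log2 difference. CREB3L2 had 4785 and 4360 bp at day 4 and 3905 and 4467 bp at day 10 with NSD2LDD, against 3402 and 3362 bp at day 4 and 3190 and 4081 bp at day 10 with DMSO. The NSD2LDD library with the least coverage lay under the highest DMSO library, and the log2 difference was 0.29 ± 0.11 (SE, adjusted p = 1.00, limma). SDF2L1 had 839 and 829 bp, then 636 and 968 bp with NSD2LDD, against 843 and 1423 bp, then 1001 and 1473 bp with DMSO (log2 difference −0.44 ± 0.19, SE, adjusted p = 1.00, limma). Of the 135 regions 0 were called by limma, against 0.0694% of all regions, and 6 had an unadjusted p under 0.05, against 4.80% of regions. The smallest p were those of a region in the body of DERL1, a channel component of degradation, at chr8:123025612-123027027 and of the start region of CALR, a lectin chaperone. The DERL1 region was covered by 706, 784, 167 and 771 bp with NSD2LDD, against 532, 401, 0 and 0 bp with DMSO (log2 difference 1.42 ± 0.38, SE, adjusted p = 0.229, limma), and it was listed at 0 in every KMS34 library. The CALR start was covered by 838 to 1159 bp with NSD2LDD, against 1009 to 1458 bp with DMSO (log2 difference −0.28 ± 0.09, SE, adjusted p = 0.433, limma).

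In the main fit the NSD2LDD effect was not shown to differ between the lines for any member. The difference of effects, KMS34 minus KMS11, was called for 0 of 40 genes (0.00% of all genes; 1 member and 3.32% of genes had an unadjusted p under 0.05) and for 0 of 135 regions (0.00578% of all regions; 7 members' regions and 5.99% of regions had an unadjusted p under 0.05), by limma. For the SEL1L region it was 1.94 ± 0.39 on the log2 scale (SE, adjusted p = 0.130, limma). That region was called under 2 of 7 alternatives, with 30 bp added and without the trend and robust options. Its lowest adjusted p under an alternative was 0.010 (limma).

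The sensors and their effectors overlapped between NSD2LDD and DMSO libraries. HSPA5 had 855, 1127, 1108 and 1155 bp in KMS34 with NSD2LDD, against 933, 1624, 1179 and 1133 bp with DMSO, and 1094, 1187, 863 and 1251 bp in KMS11 with NSD2LDD, against 879, 1063, 881 and 1234 bp with DMSO. ERN1 had 4110, 5231, 4849 and 6189 bp in KMS34 with NSD2LDD, against 4211, 5187, 7438 and 4101 bp with DMSO, and 4487, 5303, 2483 and 3982 bp in KMS11 with NSD2LDD, against 3993, 4223, 3175 and 5426 bp with DMSO. ATF6 had 2121, 1724, 2168 and 2783 bp in KMS34 with NSD2LDD, against 853, 2076, 2185 and 1993 bp with DMSO, and 3111, 4242, 2821 and 5178 bp in KMS11 with NSD2LDD, against 2896, 3069, 2925 and 3730 bp with DMSO. The ranges also overlapped for EIF2AK3 (1889 to 2703 bp with NSD2LDD in KMS34, against 1653 to 3093 bp with DMSO; 1765 to 2502 bp in KMS11, against 1582 to 2491 bp) and ATF4 (1394 to 1455 bp in KMS34, against 1160 to 1590 bp; 1436 to 1543 bp in KMS11, against 1381 to 1490 bp). DDIT3, the pro-apoptotic factor, had 1915 to 2354 bp with NSD2LDD in KMS34, against 1807 to 2339 bp with DMSO, and 1921 to 2232 bp in KMS11, against 1976 to 2293 bp. MZB1 had 1541 to 1947 bp with NSD2LDD in KMS34, against 1421 to 2102 bp with DMSO, and 1372 to 1834 bp in KMS11, against 1172 to 2020 bp.

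No member gene was called between TKO and KMS11 day 0 libraries, while 3 single regions in CREB3L2, HYOU1 and ERN1 were. At the gene level 0 of 40 members were called, against 4.69% of all genes (limma, 2 libraries against 2), and 2 members had an unadjusted p under 0.05, against 16.1% of genes. The median log2 difference was −0.0057 over the members and −0.03 over all genes, and without scaling it was 0.14 and 0.11, again with 0 members called. HYOU1, a large Hsp110-type chaperone, had 1711 and 1080 bp in TKO libraries, against 1262 and 482 bp in KMS11 day 0 (log2 difference 0.50 ± 0.19, SE, adjusted p = 0.181, limma). It passed the limit when KMS11 day 0 replicate 1 was left out (log2 difference 0.81, adjusted p = 0.0198). CREB3L2 had 3675 and 2208 bp in TKO libraries, against 4040 and 2844 bp (log2 difference −0.38 ± 0.16, SE, adjusted p = 0.246, limma). ATF4 had 1164 and 1343 bp in TKO libraries, against 949 and 616 bp (adjusted p = 0.320, limma). HSPA5 had 870 and 825 bp, against 869 and 988 bp, ERN1 4836 and 2285 bp, against 3086 and 2102 bp, and ATF6 3125 and 1850 bp, against 2721 and 1287 bp. EIF2AK3 had 2137 and 1328 bp in TKO libraries, against 2057 and 1317 bp, DDIT3 1887 and 1781 bp, against 2084 and 1578 bp, and MZB1 1657 and 941 bp, against 1437 and 643 bp. Replicate 1 was higher than replicate 2 in both groups for ERN1, ATF6, EIF2AK3, DDIT3 and MZB1, and its lists were longer, with 30699 against 26887 peaks in TKO and 36913 against 24979 in KMS11 day 0.

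Among the 135 regions 3 were called in this comparison, 1 lower and 2 higher in TKO libraries, against 4.07% of all regions (3.10% lower and 0.967% higher). All 3 lay away from start sites, where 3 of 84 were called (4.19% of all such regions), and 0 of 51 were called at start sites (3.54%). A region in the body of CREB3L2 at chr7:137992629-137993405, 9070 bp from the nearest start, was listed at 0 in both TKO libraries, against 429 and 406 bp in KMS11 day 0. It was covered in all other 20 libraries, by 275 to 712 bp, and the fitted log2 difference was −2.51 ± 0.21 (SE, adjusted p = 3.3e-06, limma), and −4.05 with 30 bp added. The call held under each alternative and each left-out library, with adjusted p of 8.9e-08 to 0.00103. A region in the body of HYOU1 at chr11:119051773-119052217, 5211 bp from the start, was covered by 445 and 213 bp in TKO libraries and was listed at 0 in the other 20 libraries. It entered the test only through the TKO pair, which fixed its direction, and it is given as values. A region in the body of ERN1 at chr17:64108019-64108376 was covered by 325 and 201 bp in TKO libraries, by 338 bp in KMS11 NSD2LDD day 10 replicate 2, and in no other library. Without the TKO pair it would not have met the filter of at least 2 libraries. Its direction was thus also fixed, and it is given as values. Leaving out 1 library ended this call in 20 of 22 fits. With 1 library left out, the fitted log2 difference of the CREB3L2 region was between −2.67 and −2.35.

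KMS34 and KMS11 differed at 12 of the 40 members, 8 lower and 4 higher in KMS34, in day 0 and DMSO libraries (6 against 6). Of all genes 35.6% were called, 14.7% lower and 20.9% higher, so 12 of 40 was near the background. This comparison uses the same KMS11 day 0 and DMSO libraries as those above. By role, 1 of 10 chaperone genes, 1 of 4 disulfide isomerases, 2 of 8 translocation genes, 4 of 10 degradation genes, 3 of 7 sensors and factors, and SEC24D were called. The median log2 difference was −0.03 over the members and 0.03 over all genes. Without library scaling the median of all genes was 0.25, and 7 members were called, 2 lower and 5 higher.

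**Figure D4:**
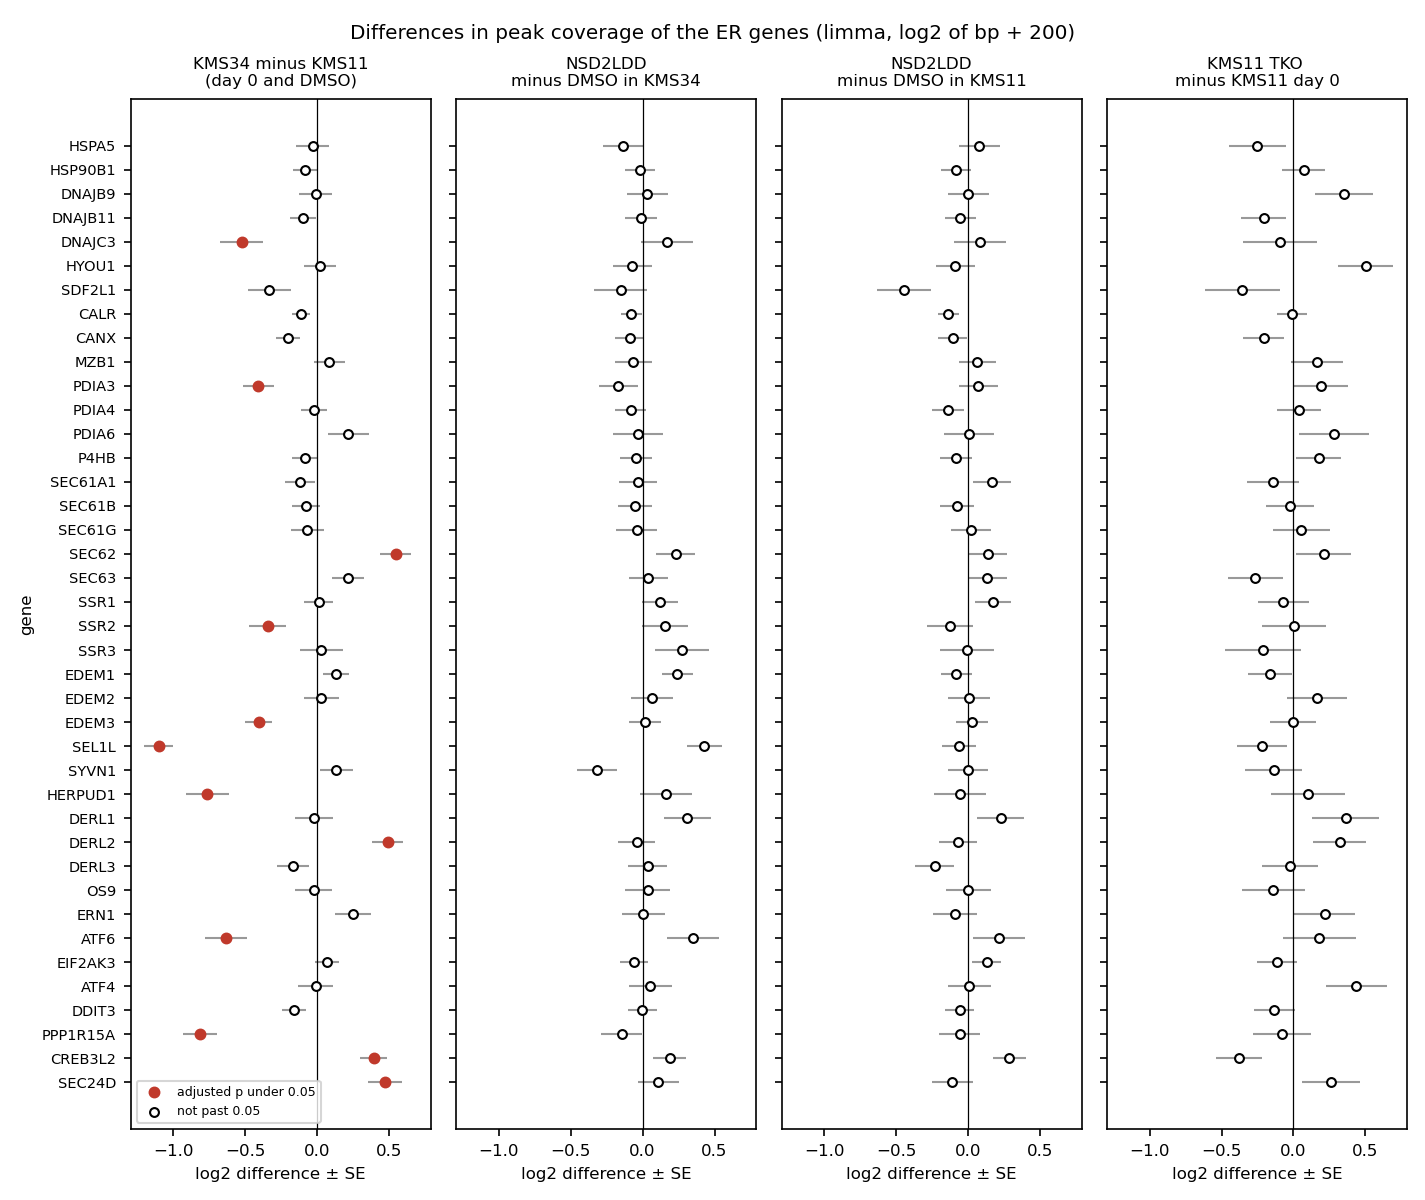
Log2 difference in peak coverage (point, with its SE as a bar) for the 40 members in 4 comparisons; filled points have an adjusted p under 0.05 and open points do not. All 12 filled points lie in the panel of KMS34 minus KMS11, the lowest being SEL1L at −1.10.

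Of the degradation genes, SEL1L, HERPUD1 and EDEM3 were lower and DERL2 was higher in KMS34. SEL1L had 1096, 1647.5 and 2821 bp (lowest, median, highest) in KMS34, against 2384, 3145.5 and 4501 bp in KMS11, with 1 KMS34 library inside the KMS11 range (log2 difference −1.10 ± 0.10, SE, adjusted p = 3.3e-07, limma). HERPUD1, which brings the ligase complex together, had 1157, 1437 and 1670 bp in KMS34, against 861, 2395 and 3549 bp in KMS11, where 1 day 0 library lay under every KMS34 library (log2 difference −0.76 ± 0.15, SE, adjusted p = 0.00072, limma). DERL2 was higher, at 1275, 1826.5 and 2143 bp in KMS34, against 522, 1166.5 and 1416 bp in KMS11, and the lowest 2 KMS34 libraries lay in the KMS11 range (log2 difference 0.49 ± 0.11, SE, adjusted p = 0.0018, limma). The 2 regions in the DERL2 window also lie at other genes' starts, the flank region at DHX33 and the start region at MIS12. In its start window alone DERL2 was not called (log2 difference 0.14, adjusted p = 0.319, limma). EDEM3 had 1863, 2189.5 and 2355 bp in KMS34, against 1755, 2519 and 3167 bp in KMS11 (log2 difference −0.41 ± 0.09, SE, adjusted p = 0.0023, limma). EDEM3 lost the call without scaling (adjusted p = 0.339), and HERPUD1 without scaling (adjusted p = 0.0861) and with lists of equal length (adjusted p = 0.191).

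Of the sensors and factors, PPP1R15A and ATF6 were lower and CREB3L2 was higher in KMS34. PPP1R15A had 621, 967 and 1225 bp in KMS34, against 822, 1953.5 and 2028 bp in KMS11 (log2 difference −0.81 ± 0.12, SE, adjusted p = 4.6e-05, limma). In KMS11 its day 0 libraries had 929 and 822 bp, inside the KMS34 range, and its DMSO libraries had 1896 to 2028 bp, above it. ATF6 had 853, 2056 and 3249 bp in KMS34, against 1287, 2910.5 and 3730 bp in KMS11, and the groups overlapped widely (log2 difference −0.63 ± 0.15, SE, adjusted p = 0.0029, limma; 0.189 without scaling). CREB3L2 was higher, with 3826, 5502 and 7250 bp in KMS34, against 2844, 3382 and 4081 bp in KMS11, and 1 KMS34 library lay inside the KMS11 range (log2 difference 0.39 ± 0.09, SE, adjusted p = 0.0036, limma).

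Among the other roles, SEC62, a subunit of the post-translational translocon, had 1183, 1859.5 and 1985 bp in KMS34, against 612, 918 and 1408 bp in KMS11 (log2 difference 0.55 ± 0.11, SE, adjusted p = 0.00094, limma; 0.118 with lists of equal length). SEC24D, a cargo adaptor of COPII vesicles, had 2141, 2552 and 3298 bp in KMS34, against 729, 1556.5 and 2445 bp in KMS11 (log2 difference 0.47 ± 0.12, SE, adjusted p = 0.0048, limma). PDIA3, the disulfide isomerase that works with the lectin chaperones, had 736, 1224.5 and 1719 bp in KMS34, against 914, 1492.5 and 1907 bp in KMS11 (log2 difference −0.41 ± 0.11, SE, adjusted p = 0.0087, limma; 0.396 without scaling). A region in the PDIA3 flank lies at the starts of ELL3 and SERF2. In its start window alone PDIA3 was not called (log2 difference −0.11, adjusted p = 0.230, limma). DNAJC3, a co-chaperone of BiP, and SSR2 were also lower, by log2 differences of −0.53 (adjusted p = 0.011, limma) and −0.34 (adjusted p = 0.047, limma). Both lost the call without scaling, with lists of equal length and with the peak number covariate, DNAJC3 also with a stricter q and in start windows, and SSR2 in most fits that left out a library. With log2 peak number as a covariate, 6 members were called, and SEL1L, PPP1R15A, HERPUD1, SEC62, DERL2 and ATF6 remained.

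**Figure D5:**
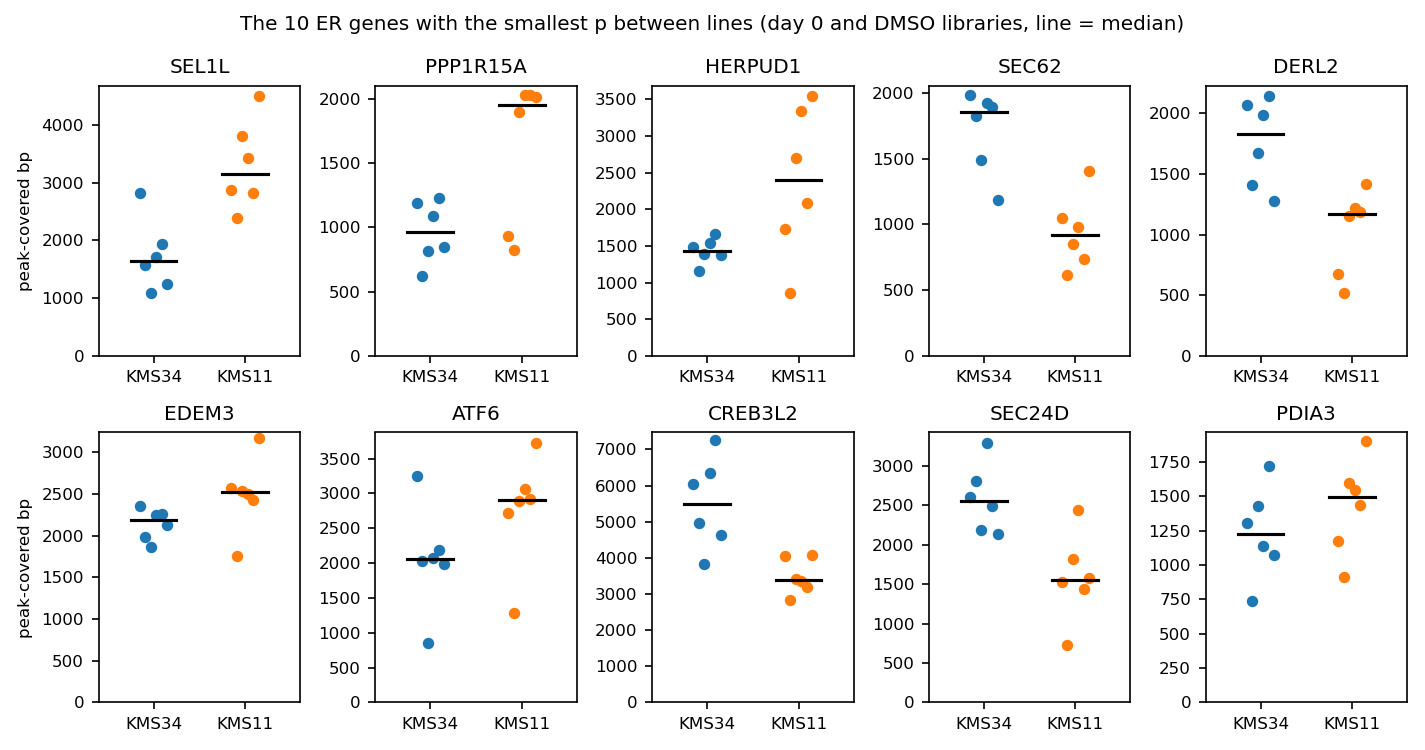
Peak-covered bp of the 10 members with the smallest p between the lines, in 6 KMS34 (left) and 6 KMS11 (right) day 0 and DMSO libraries; points are libraries and bars are medians. Each pair of groups overlaps in at least 1 library, and PPP1R15A splits in KMS11 into 2 libraries of day 0 under 1000 bp and 4 DMSO libraries near 2000 bp.

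The same comparison was made for single regions. Of the 135 regions 34 were called between the lines, 19 lower and 15 higher in KMS34, against 34.2% of all regions (14.2% lower and 20.0% higher). At start sites 13 of 51 were called (25.5%; 26.2% of all start-site regions), and away from start sites 21 of 84 (25.0%; 36.1% of all such regions). Start regions were the constant ones: 88.2% of members' start regions were called in all 22 libraries and 13.1% of the others, against 69.0% and 8.83% over all regions.

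Several regions were listed in 1 line and at 0 in the other. The share of all regions with this pattern was not counted, so it is not given as a trait of these genes. Of the 5 regions called lower with the smallest p, 4 were at 0 in all 6 KMS34 day 0 and DMSO libraries and were covered in all 6 of KMS11. In PPP1R15A, chr19:48874724-48875982, 2931 bp from the start, was covered by 822 to 1175 bp in KMS11. In ATF6, chr1:161801675-161802598 was covered by 306 to 891 bp in KMS11. In the flank of SEC61B, a subunit of the translocon channel, chr9:99235380-99236487 was covered by 474 to 698 bp in KMS11. In HERPUD1, chr16:56944614-56945683 was covered by 371 to 1015 bp in KMS11. None of these 4 was covered in any of the 10 KMS34 libraries, and all were covered in all 12 of KMS11, TKO included. They entered the test only through KMS11 libraries, which fixed their direction, and they are given as values. SEL1L differed by degree: chr14:81470076-81472216 was covered by 190 to 747 bp in KMS34, against 1041 to 2141 bp in KMS11 (log2 difference −1.92 ± 0.16, SE, adjusted p = 1.2e-07, limma).

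In the other direction, a CREB3L2 region at chr7:137986137-137987354 was covered by 332 to 1073 bp in the 6 KMS34 libraries and was listed at 0 in the 6 of KMS11. No KMS11 library of any label held it, so it entered the test only through KMS34, which fixed its direction, and it is given as values. An ERN1 region at chr17:64091121-64092124 was covered by 452 to 934 bp in the same 6 KMS34 libraries and was listed at 0 in the same 6 of KMS11. Among KMS11 libraries of any label, only TKO replicate 2 held it, by 181 bp. The filter asks for a peak in at least 2 libraries, so this region too entered the test only through KMS34. That fixed its direction, and it is given as values. A SEC24D region at chr4:118759693-118761190 was covered by 604 to 1045 bp in KMS34, against 279 and 446 bp in the day 4 DMSO libraries of KMS11 and 0 in its other 4 (adjusted p = 2.0e-05, limma). A region in the flank of SEC62 at chr3:169998785-169999662 was covered by 223 to 852 bp in KMS34, against 301 bp in 1 KMS11 library and 0 in 5 (adjusted p = 0.00024, limma; 0.157 with lists of equal length). The HERPUD1 start region itself was wider in KMS34, at 1157 to 1670 bp, against 490 to 1436 bp in KMS11 (log2 difference 0.39 ± 0.05, SE, adjusted p = 3.1e-05, limma).

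The whole window and the start window went opposite ways in 4 called members, and for 3 of them the start window was also called. Counted within 1 kb of the start, HERPUD1 was higher in KMS34 (log2 difference 0.32, adjusted p = 0.00033, limma) and PPP1R15A was higher (0.62, adjusted p = 0.030), where over the whole window both were lower. CREB3L2 was lower at the start (−0.25, adjusted p = 0.012) and higher over the whole window. SEC24D, higher over the whole window, had −0.037 in its start window (adjusted p = 0.806, limma). The PPP1R15A start window held 621 to 1225 bp in KMS34, against 0 and 0 bp in KMS11 at day 0 and 836 to 1095 bp in KMS11 with DMSO. In HERPUD1 the start window held 490 and 614 bp in KMS11 at day 0, against 1026 to 1436 bp in its DMSO libraries. In KMS11 day 0, replicate 1 held 36913 peaks and replicate 2 held 24979, the shortest list, against 34115 to 39002 in the KMS11 DMSO libraries. Replicate 1 had 0 bp in the PPP1R15A start window and 614 bp in that of HERPUD1. The part of list length in these values was not tested.

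The other 59 ER genes, listed by function, were set beside the members. NSD2LDD gave 0 calls by limma in KMS34 and 0 in KMS11. In TKO libraries 1 of 59 was called, NPLOC4, a cofactor of the VCP segregase, with 3152 and 5006 bp (lower and higher library), against 913 and 3090 bp in KMS11 day 0 (log2 difference 0.98 ± 0.23, SE, adjusted p = 0.0199, limma). Between the lines 15 were called (25.4%), 9 lower and 6 higher in KMS34. CREB3L1, a relative of CREB3L2, had 613, 1602.5 and 2668 bp in KMS34, against 166 bp in 1 KMS11 library and 0 in the other 5 (adjusted p = 7.4e-07, limma). KDELR1, the receptor that returns ER residents from the Golgi, had 889, 1749.5 and 2593 bp in KMS34, against 1919, 4119 and 4628 bp in KMS11 (log2 difference −1.32 ± 0.14, SE, adjusted p = 2.2e-06, limma). ASNS, asparagine synthetase and an ATF4 target, had 1999, 2480 and 3310 bp in KMS34, against 919, 1323.5 and 1710 bp in KMS11, with no overlap (log2 difference 0.66 ± 0.08, SE, adjusted p = 1.0e-05, limma). XBP1 had 1347, 1670 and 2325 bp in KMS34, against 1383, 2143.5 and 2423 bp in KMS11 (log2 difference −0.43 ± 0.08, SE, adjusted p = 0.00072, limma). XBP1 had 1576 to 2208 bp with NSD2LDD in KMS34, against 1347 to 2325 bp with DMSO, and 2015 to 2336 bp with NSD2LDD in KMS11, against 2013 to 2423 bp with DMSO. In TKO libraries it had 2149 and 1858 bp, against 2026 and 1383 bp in KMS11 day 0.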

How the data were processed

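Each library's deposited file is a narrowPeak list in hg38 from MACS3, per the submitters' processing notes, which also name fastp, BWA, SAMtools, Picard and deepTools without versions. The authors called peaks in each library separately, and the deposited columns hold a score, a fold enrichment (ratio), −log10 p and −log10 q values and a summit position. Covered bp were counted in RefSeq (GRCh38.p14) gene bodies and 5 kb either side, and peaks of all libraries were merged into 96160 regions. Gene and region values were log2(bp + 200) and log2(bp + 100), less the library median over features called in every library, and entered a limma model (version 3.58.1, run in R 4.3.3, trend and robust options on) that gives each of the 11 groups 1 mean and uses all 22 libraries; features called in at least 2 libraries were tested, with Benjamini-Hochberg adjustment and a threshold of 0.05. The fit was tested on simulated data, and covered bp were checked with bedtools 2.31.1. Python 3.11.15 with pandas 2.3.3 made the tables.

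The labels give no sequencing batch. The members and lists were chosen with earlier results of these data known. Named were members called in a comparison (between lines, the 10 with the smallest p), otherwise the 2 with the smallest p; HSPA5, ERN1, ATF6, EIF2AK3, ATF4, DDIT3 and MZB1 always; up to 5 called regions per direction; 3 other ER genes and XBP1; and the members of lowest and highest coverage. Nothing in the labels ties equal replicate numbers together, so the fit has no block. Alternatives were a stricter q, equal list lengths, no scaling, other added bp, a filter, a covariate for peak number, 1 line only, start windows and leaving out each library.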

Additional observations from a re-analysis of the deposited data

Results flagged for a closer look

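Of 120 combinations of 20 named genes and 6 arms, 6 held a library set apart from its arm by a gap that was large for the arm's range, and about 1 in 20 such groups is marked by chance. In KMS34 the DMSO library of day 4, replicate 1, had 853 bp in ATF6, against 1993 bp in the next DMSO library. HSPA5 had 855 bp in KMS34 NSD2LDD day 4 replicate 1, with the next NSD2LDD library at 1108 bp, and 1624 bp in KMS34 DMSO day 4 replicate 2, with the next day 0 or DMSO library at 1179 bp. In KMS11, PPP1R15A had 1446 bp in NSD2LDD day 10 replicate 1, with the next NSD2LDD library at 2060 bp, and 1896 bp in DMSO day 4 replicate 1, with the next DMSO library at 2011 bp. EDEM3 had 3167 bp in KMS11 DMSO day 10 replicate 2, with the next DMSO library at 2535 bp.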

How the results depend on the processing

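The counts of 0 members for NSD2LDD and for the difference of effects were 0 under every alternative and left-out library. For TKO the count was 0 under every alternative and 0 to 1 with 1 library left out (HYOU1 without KMS11 day 0 replicate 1, DERL2 without TKO replicate 2). Between the lines the 12 called members became 7 without scaling, of which 6 were among the 12 and SEC63 was new. They became 6 with log2 peak number as a covariate, and 11 to 13 with 1 library left out. Start windows gave 7, of which 6 were among the 12 and ERN1 was new. Of these 6, PPP1R15A, HERPUD1 and CREB3L2 were called in the opposite direction. DERL2, DNAJC3, EDEM3, PDIA3, SEC24D and SEC62 lost the call in start windows. The 3 TKO regions became 1 among regions called in at least 6 libraries, 1 with KMS11 libraries alone, and 2 to 5 with 1 library left out. The 2 KMS34 NSD2LDD regions became 1 with −log10 q of 5 or more, 0 with lists of equal length, 1 among regions called in at least 6 libraries, 0 with KMS34 libraries alone, and 1 to 3 with 1 library left out (3 without DMSO day 10 replicate 2, where a SYVN1 region was added). The 34 regions between lines became 20 with the covariate and 27 to 35 with 1 library left out. For the difference of effects the 0 regions became 1, at SEL1L, with 30 bp added and 1 without trend and robust. The 39 members with a start peak in every library stayed 39 with any library left out, and became 0 when 50% of the window had to be covered. In start windows the log2 differences between lines reversed for PPP1R15A (0.62), HERPUD1 (0.32), CREB3L2 (−0.25) and SEC24D (−0.037), and SEL1L reversed for NSD2LDD in KMS34 (−0.051) and for the difference of effects (−0.094); the cause was not tested. A fit of 1 line only does not exist for comparisons across lines.

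Replicate numbers were not taken to pair the libraries: the correlation of same-numbered deviations had a median of −0.0202 over 55 pairs of groups for genes, with a range of −0.212 to 0.274 and 9 pairs over 0.1; it was 0.188 between TKO and KMS11 day 0. With the replicate block, 12 members were called between lines and 0 in the other comparisons, and the regions called were 2 in TKO, 1 for NSD2LDD in KMS34, 0 in KMS11, 34 between lines and 0 for the difference of effects. The ERN1 region of the TKO comparison and the EDEM1 region were the calls lost.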
